A study of Homo sapiens with 16 samples.

Results

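DDB2 and FAS are targets of the tumour suppressor p53, and 6 genes that flank them are described here across the response of prostate cancer cells to ionizing radiation (IR). ARFGAP2, PACSIN3, ACP2, NR1H3 and MADD lie beside DDB2 on chromosome 11, and ACTA2 overlaps FAS on chromosome 10. They are 6 of the 60605 gene identifiers in the count tables. They were picked because neighbours of genes with more signal after IR had more signal too, and the choice named no single comparison. Their differences after IR are therefore a description, and where the fit over all genes called one of them after IR, nothing is read from the call. Tests of the 6 genes are kept for enzalutamide, for its interaction with IR and for the difference between batches, which the choice did not name. The interaction and the batch difference are made of the same differences after IR. They are therefore not independent of the choice.

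p53 is stabilized when DNA is broken and activates genes by binding paired copies of a short motif. DDB2 encodes a subunit of the complex that recognizes ultraviolet lesions for nucleotide excision repair, and FAS encodes a death receptor. PRO-seq is a nuclear run-on assay that labels the nascent RNA of engaged RNA polymerases, so a count reports polymerases on a gene rather than stable mRNA. In bulk counts, more cells transcribing a gene and more polymerases per cell cannot be told apart.

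The cells were LNCaP, an established line derived from a lymph node metastasis of prostate cancer, grown in medium with serum. The series concerns the transcription of DNA damage response genes. Batch 1 held mock-treated cells and cells given 6 Gy IR, as replicates 1 and 2, each with a library t1 and a library t2. What t1 and t2 stand for is not stated, so the counts of both were summed to 1 sample. Batch 2 held replicates 3 and 4 of 4 groups, namely DMSO vehicle for 90 min, vehicle with 6 Gy IR, 10 µM enzalutamide for 90 min, and 10 µM enzalutamide with 6 Gy IR. Enzalutamide is a hormone therapy drug for prostate cancer. In batch 2, IR came 30 min into the treatment and cells were collected 60 min later, and the protocol has no separate arm that describes the mock group of batch 1. The labels do not say that replicates came from separate cultures, so p-values measure the spread between these samples, which may be technical. All groups come from 1 cell line, with 2 samples a group.

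Total counts were between 8022989 and 16851473 per sample in batch 1 and between 10494563 and 19905824 in batch 2. Prostate luminal markers were detected in every sample, among them FOLH1 at 956 to 1390 CPM (counts scaled to the size of the library), TMPRSS2 at 270.4 to 490.0 CPM, KLK2 at 66.1 to 251 CPM and KRT8 at 55.5 to 122 CPM. KLK3 differed between batches, at 135 to 181 CPM in batch 1 and 5.28 to 17.1 CPM in batch 2, where the vehicle samples stood at 17.1 and 13.5 CPM.

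Stretches that match the p53 consensus half-site at the starts of DDB2, FAS and ACTA2 are printed first, since p53 targets define these loci. The search used RefSeq windows of 300 bases on GRCh38.p14 (250 before and 50 after each annotated start), read on both strands. It required a pair of half-sites of 10 bases, at most 3 bases apart, with at most 2 mismatches outside the core C and G. Of 35116 such windows, 2329 (6.63%) held at least 1 exact half-site and 341 (0.971%) held a pair. Of the 6 flanking genes, 5 had windows in the table (all but PACSIN3), and 1 of their 14 windows held a pair. For each of these genes 1 stretch is printed 5′ to 3′ along the named gene's strand, with the paired half-sites and any spacer in capitals. The search counted 2 pairs in the DDB2 window, and 1 of them is printed.
DDB2, chr11:47214975-47215003, plus strand: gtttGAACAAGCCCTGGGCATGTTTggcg
FAS, chr10:88991304-88991333, plus strand: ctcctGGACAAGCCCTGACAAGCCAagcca
ACTA2, chr10:88991304-88991333, minus strand: tggctTGGCTTGTCAGGGCTTGTCCaggag
The printed DDB2 match had 0 mismatches and a spacer of 1 base, and it started 525 bases inside the annotated gene. The FAS and ACTA2 lines are the same 30 bases read on opposite strands, with 2 mismatches. This stretch lies in the window of 1 of the 3 annotated starts of FAS, with its capitals 27259 bases inside the annotated FAS span. The capitals begin 9 bases from the annotated 5′ end of ACTA2, so both genes share the stretch. It lies in 1 window of ACTA2, and the other ACTA2 window (chr10:88952724-88953023) held 0 exact half-sites and 0 pairs. None of the 12 windows of ARFGAP2, ACP2, NR1H3 and MADD held even 1 exact half-site, which says only that these letters are not in those windows. A match describes letters and not binding, which was not measured here.

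The DDB2 neighbours lie on both sides of it. On the upstream side, ARFGAP2 (ENSG00000149182, chr11:47164301-47176879, minus strand) lies 37.6 kb before DDB2 (ENSG00000134574, chr11:47214454-47239217, plus strand). PACSIN3 (ENSG00000165912, chr11:47177522-47186434) lies 28.0 kb before it. On the downstream side, ACP2 (ENSG00000134575, chr11:47239302-47248814, minus strand) lies 84 bases past the end of DDB2. NR1H3 (ENSG00000025434, chr11:47248300-47269033, plus strand) lies 9.08 kb past it and overlaps ACP2 by 515 bases. MADD (ENSG00000110514, chr11:47269188-47330031, plus strand) lies 30.0 kb past DDB2 and only 154 bases after NR1H3. ACTA2 (ENSG00000107796, chr10:88935074-88991337, minus strand) shares 27.3 kb with FAS (ENSG00000026103, chr10:88964050-89017059, plus strand), which is 48.5% of ACTA2 and 51.5% of FAS. Whether the counting used strand is not given in the sources used here, so reads of overlapping genes may have been split or shared between them.

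DDB2 and FAS set the scale of the response. DDB2 stood at 40.01 and 37.7 CPM in mock cells and at 227 and 235 CPM after IR in batch 1. In batch 2 it stood at 46.7 and 49.5 CPM with vehicle and at 243 and 201 CPM after IR, and at 50.1 and 54.2 CPM with enzalutamide and 216 and 187 CPM with enzalutamide and IR. Irradiated samples were far above their controls in each comparison. FAS stood at 13.6 and 9.11 CPM in mock cells against 68.4 and 66.9 CPM after IR, and at 9.46 and 10.3 CPM with vehicle against 36.7 and 37.2 CPM after IR. With enzalutamide it stood at 8.70 and 10.8 CPM, and at 29.8 and 34.0 CPM with enzalutamide and IR. The groups of FAS did not overlap either. The log2 differences after IR were 2.57, 2.20 and 1.95 for DDB2 and 2.58, 1.896 and 1.73 for FAS in batch 1, vehicle and enzalutamide.

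PACSIN3, an F-BAR protein that bends membranes and binds dynamin in endocytosis, had the highest log2 difference after IR of the DDB2 neighbours in both comparisons without enzalutamide. In batch 1 it stood at 24.8 and 25.0 CPM in mock cells and at 39.9 and 40.5 CPM after IR. In batch 2 it stood at 27.7 and 28.2 CPM with vehicle and at 44.6 and 44.5 CPM after IR. With enzalutamide it stood at 28.1 and 35.4 CPM, and with enzalutamide and IR at 43.2 and 46.8 CPM. Every irradiated sample was above both of its controls, and replicates lay close together except in the enzalutamide group without IR. The log2 difference after IR was 0.69 (SE 0.111) in batch 1, 0.67 (SE 0.115) with vehicle and 0.51 (SE 0.116) with enzalutamide.

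ARFGAP2, a GTPase-activating protein for ARF1 on COPI-coated vesicles, has the widest gap of the 5 to DDB2. Batch 1 gave 38.3 and 40.8 CPM in mock cells and 51.1 and 59.2 CPM after IR. With vehicle, batch 2 gave 59.7 and 63.7 CPM and, after IR, 90.0 and 78.1 CPM. With enzalutamide it gave 66.4 and 72.5 CPM and, after IR, 86.0 and 88.8 CPM. No group overlapped its control, although the irradiated replicates differed from each other more than those of PACSIN3 did in batch 1 and with vehicle. In the same order of comparisons, the log2 differences were 0.48 (SE 0.113), 0.45 (SE 0.0954) and 0.33 (SE 0.0958).

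ACP2, a lysosomal acid phosphatase, has the smallest gap to DDB2, at the end of that gene. Its mock samples stood at 33.5 and 27.6 CPM and the irradiated ones of batch 1 at 42.2 and 46.3 CPM. Its vehicle samples stood at 27.0 and 31.6 CPM, against 37.6 and 39.2 CPM after IR. Its enzalutamide samples stood at 31.1 and 29.8 CPM, against 43.2 and 43.9 CPM after IR. All irradiated samples were the higher ones, and the control replicates of batch 1 were the most spread. The log2 differences were 0.54 (SE 0.123), 0.39 (SE 0.105) and 0.51 (SE 0.106). They were not above those of PACSIN3 in batch 1 or with vehicle, and the 2 genes were not tested against each other. The gap of 84 bases is counted from the end of DDB2 and the 28.0 kb of PACSIN3 from its start. From the start of DDB2 the gene midpoints lie at 29.6 kb for ACP2 and -32.5 kb for PACSIN3.

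NR1H3 encodes LXRα, a nuclear receptor for oxysterols that controls cholesterol efflux. It stood at 29.4 and 26.8 CPM in mock cells and 35.9 and 37.9 CPM after IR in batch 1. With vehicle it stood at 29.6 and 33.5 CPM, and after IR at 42.5 and 34.9 CPM. With enzalutamide it stood at 29.8 and 37.7 CPM, and after IR at 40.8 and 39.3 CPM. The groups did not overlap, but in batch 2 the gap between the lowest irradiated and the highest control sample was only 1.35 CPM with vehicle and 1.58 CPM with enzalutamide. The log2 differences were 0.40 (SE 0.115), 0.29 (SE 0.133) and 0.26 (SE 0.134). NR1H3 is also active in macrophages, whose 7 markers were all detected, with a sum led by CD68 (44.5 to 64.7 CPM). That sum was 56.0 to 67.7 CPM in mock cells and 70.6 to 72.2 CPM after IR, 55.7 to 58.8 CPM with vehicle and 59.3 to 67.8 CPM after IR, and 60.4 to 61.7 CPM with enzalutamide and 62.0 to 72.8 CPM after IR. PTPRC (at most 0.903 CPM), CD14 (at most 0.891 CPM) and LYZ (at most 0.556 CPM) were near 0 in every sample, while SPI1 reached 8.52 CPM and CSF1R 2.29 CPM. ITGAM stood at 1.13 and 1.32 CPM in mock cells and at 3.39 and 3.41 CPM after IR in batch 1. The part of this list in the NR1H3 values was not tested.

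MADD, a guanine nucleotide exchange factor for RAB3 GTPases that also binds the TNF receptor, was the least different neighbour. In batch 1 its mock samples stood at 48.5 and 56.6 CPM and its irradiated samples at 53.9 and 58.6 CPM. In batch 2 it stood at 82.0 and 83.0 CPM with vehicle and at 100.1 and 95.6 CPM after IR. With enzalutamide it stood at 82.5 and 88.8 CPM, and after IR at 99.6 and 104 CPM. The groups overlapped in batch 1 and not in batch 2. The log2 differences were 0.10 (SE 0.112), 0.25 (SE 0.0834) and 0.25 (SE 0.0839), and in batch 1 the value became -0.011 when mock replicate 1 was left out.

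ACTA2, the actin of smooth muscle, had by far the highest log2 difference of the 6 flanking genes, at a low level. It stood at 8.50 and 8.12 CPM in mock cells and at 24.2 and 23.3 CPM after IR in batch 1. With vehicle it stood at 3.55 and 4.43 CPM, and after IR at 9.34 and 11.6 CPM. With enzalutamide it stood at 3.87 and 3.99 CPM, and after IR at 8.59 and 8.01 CPM. Irradiated samples were above their controls in all 3 comparisons, and batch 1 was above batch 2, where CPM were scaled separately. The log2 differences were 1.51 (SE 0.148), 1.38 (SE 0.192) and 1.08 (SE 0.202), each below that of FAS. The counts behind these values were between 43 and 389 per sample, the fewest among the 6 genes. Since 48.5% of the ACTA2 span lies inside the FAS span and the use of strand is not stated, FAS reads counted for ACTA2 cannot be told apart from its own. Most of that overlap lies upstream of the 3 FAS starts with windows, and the FAS reads that fall there were not measured. ACTA2 is also a stromal marker. The 8 other stroma and smooth muscle markers summed to 22.2 to 24.3 CPM in mock cells and 22.3 to 23.8 CPM after IR, 20.4 to 24.2 CPM with vehicle and 18.1 to 20.9 CPM after IR, and 19.6 to 22.6 CPM with enzalutamide and 17.0 to 20.6 CPM after IR. LUM (at most 0.371 CPM) and DES (at most 0.669 CPM) were near 0 in every sample, while COL1A1 stood at 6.95 to 10.6 CPM and MYH11 at 3.84 to 7.69 CPM. PDGFRB stood at 4.00 and 4.39 CPM in mock cells and at 6.23 and 5.99 CPM after IR in batch 1. The part of this list in the ACTA2 values was not tested.

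**Figure D1:**
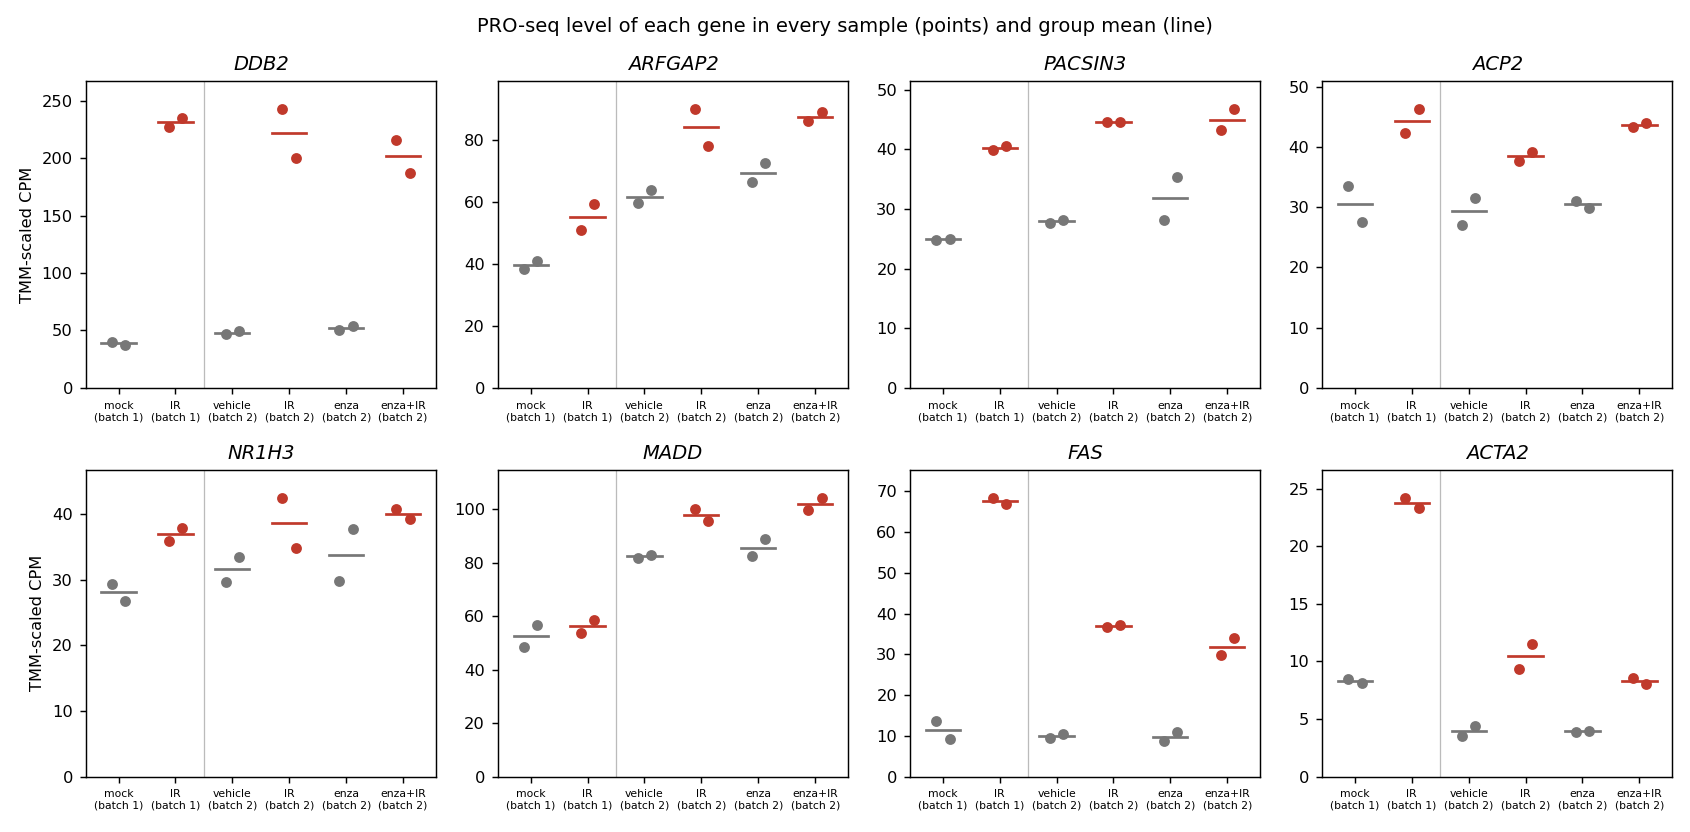
Level of each flanking gene and of DDB2 and FAS in the 6 groups, as TMM-scaled CPM on linear axes from 0 (points are the 2 samples of a group, lines their means). Irradiated samples sit above their controls for every gene in both batch 2 comparisons and, in batch 1, for every gene except MADD, whose groups overlap.

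Seen together, all 6 flanking genes had a higher mean after IR in each of the 3 comparisons. The median of their log2 differences was 0.51 in batch 1, 0.42 with vehicle and 0.42 with enzalutamide, beside -0.0021, -0.0057 and -0.014 over all genes tested. Both irradiated samples lay above both controls for 5 of the 6 genes in batch 1, where 20.3% of all genes tested did so. They did so for 6 of 6 with vehicle, where 21.8% of all genes did, and for 6 of 6 with enzalutamide, where 18.6% did. By edgeR's quasi-likelihood test at an adjusted p of 0.05 over all genes, 4 of 6 were called higher in batch 1 (ARFGAP2, PACSIN3, ACP2 and ACTA2), where 2.00% of all genes were. With vehicle 3 were called (ARFGAP2, PACSIN3 and ACTA2), where 0.743% of all genes were, and with enzalutamide 2 (ACP2 and ACTA2), where 0.625% were. With the replicate number as a block, 5 were called in batch 1 (NR1H3 added), where 4.77% of all genes were called higher. The block also gave 5 with vehicle (ACP2 and MADD added), where 2.56% were, and 5 with enzalutamide (ARFGAP2, PACSIN3 and MADD added), where 1.87% were. Since the genes were picked on these differences, nothing is read from these counts. They also rest on few samples. The counts moved when single samples were left out, and so did the calls over all genes. Without irradiated replicate 2 of batch 1, the log2 differences were 0.36 for ARFGAP2, 0.68 for PACSIN3, 0.47 for ACP2 and 0.35 for NR1H3. They were 0.03 for MADD and 1.54 for ACTA2.

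Among the genes with a mean of at least 2 CPM, the share with a log2 difference at least as high gives the place of each flanking gene. For ACTA2 it was 0.486% in batch 1, 0.248% with vehicle and 0.407% with enzalutamide. For PACSIN3 it was 2.30%, 0.953% and 1.70%, and for MADD 29.2%, 9.17% and 8.47%. For DDB2 it was at most 0.108%. ACTA2 thus stood nearest to the raised genes, and MADD among values that many genes had.

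**Figure D2:**
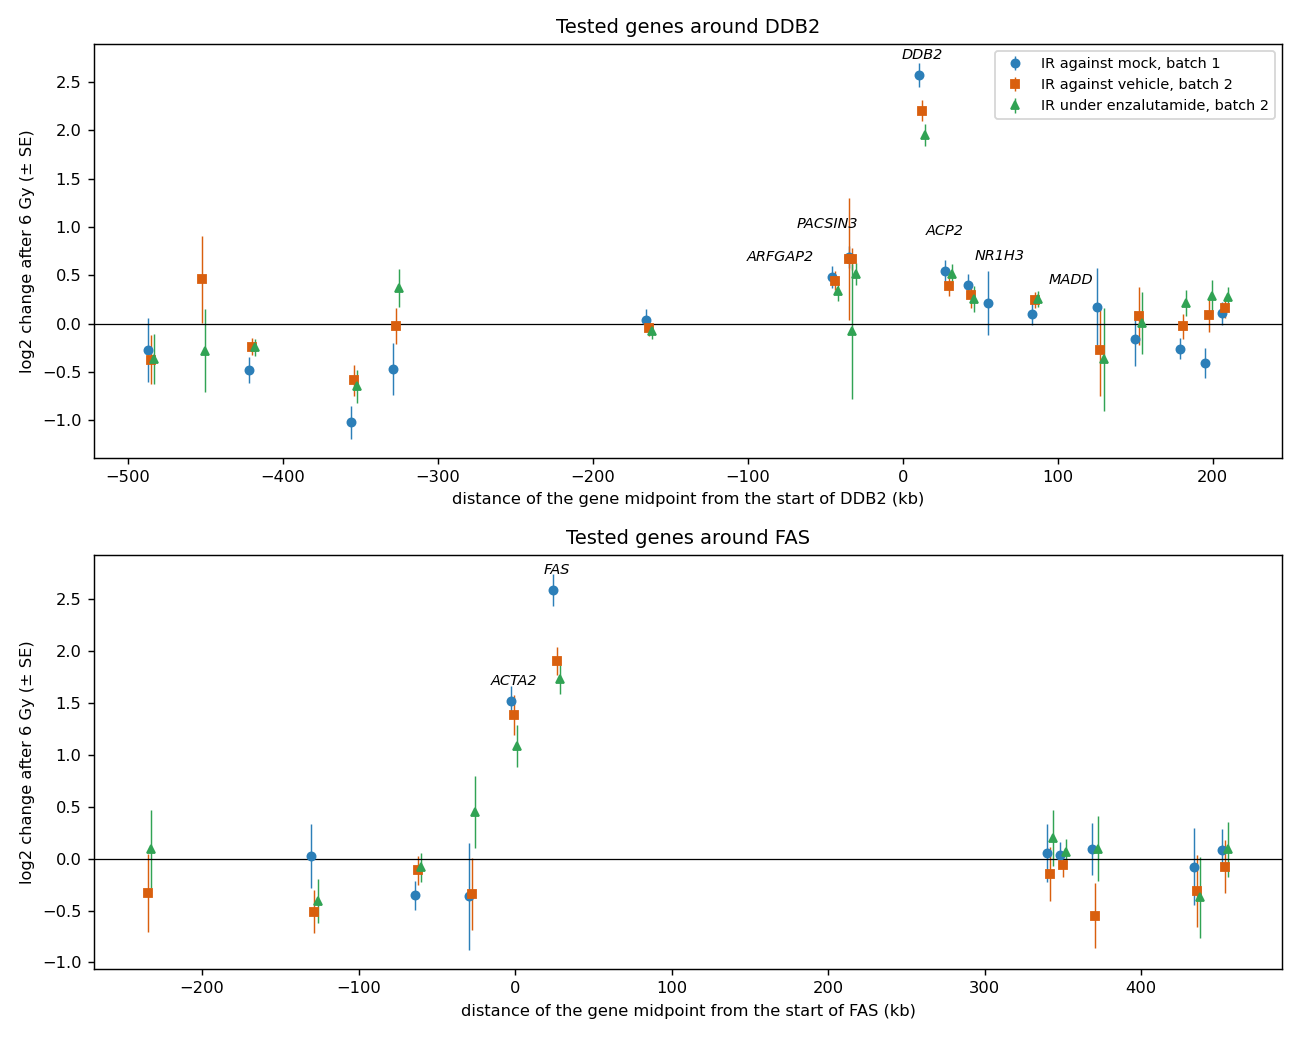
Log2 difference after IR (bars are SE) against the distance in kb of the gene midpoint from the start of DDB2 (top) and FAS (bottom), for the tested genes among the 10 on each side, in the 3 comparisons. The 5 genes beside DDB2 lie between 0.10 and 0.69, and ACTA2, at 1.08 to 1.51, is the highest gene beside FAS.

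The gain after IR, as the difference of the group means, was compared within a gene in CPM. PACSIN3 gained 15.3 CPM in batch 1, 16.6 CPM with vehicle and 13.2 CPM with enzalutamide. MADD gained 3.69 CPM in batch 1 but 15.4 CPM with vehicle and 16.4 CPM with enzalutamide, the widest range of the 6 genes in CPM. Between genes the gain was compared per kb of the RefSeq gene span, as a share of the host's gain per kb. In the same order of comparisons it was 22.1%, 26.6% and 24.5% of the gain of DDB2 for PACSIN3, 15.9%, 25.3% and 23.7% for ARFGAP2 and 18.6%, 13.6% and 22.8% for ACP2. NR1H3 (5.48%, 4.90% and 5.05%) and MADD (0.781%, 3.60% and 4.45%) gained less per kb. ACTA2 gained 25.9%, 22.5% and 18.6% of the gain of FAS per kb. The FAS span used for this includes bases upstream of its starts with windows, and 48.5% of ACTA2 lies inside it. The shares of ACTA2 depend on these spans.

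Levels of different genes were compared on the same scale, CPM per kb of the RefSeq gene span, and whether the counts cover spans or exons is not stated. With vehicle the order was ARFGAP2 at 4.90 ± 0.226 CPM per kb (SD, n = 2), PACSIN3 at 3.14 ± 0.0395, ACP2 at 3.08 ± 0.335, NR1H3 at 1.52 ± 0.134, MADD at 1.36 ± 0.0115 and ACTA2 at 0.0709 ± 0.0110. The samples of PACSIN3 and ACP2 overlapped, and those of the other neighbours in this order did not. DDB2, at 1.94 ± 0.0809 CPM per kb (SD, n = 2) with vehicle, lay below its 3 most transcribed neighbours, and at 8.96 ± 1.21 after IR it lay above all of them. ACTA2 was lower per kb than FAS, which stood at 0.187 ± 0.0118 with vehicle (SD, n = 2). This order also depends on the spans used for the 2 genes.

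The t1 and t2 libraries of batch 1 gave different pictures for the DDB2 neighbours. In t1, PACSIN3 stood at 14.9 and 19.4 CPM in mock cells and at 43.5 and 48.1 CPM after IR. In t2 it stood at 30.8 and 33.8 CPM in mock cells and at 32.9 and 33.9 CPM after IR, where the groups overlapped. The log2 difference of PACSIN3 was thus 1.42 in t1 alone and 0.06 in t2 alone. ACP2 (0.82 in t1 and 0.26 in t2) and NR1H3 (0.66 and 0.18) leaned the same way. ARFGAP2 (0.27 in t1 and 0.74 in t2) and MADD (-0.08 and 0.37) leaned the other way. ACTA2 (1.60 and 1.45), FAS (2.72 and 2.48) and DDB2 (2.35 and 2.84) were high in both. The batch 1 values of the DDB2 neighbours therefore come from summed libraries that differ, for a reason that was not tested. The libraries weigh unevenly in the sums. In replicate 1, t1 and t2 held 3438642 and 4584347 counts in mock cells and 7625459 and 4993789 after IR. In replicate 2 they held 5633290 and 3583636 in mock cells and 7488015 and 9363458 after IR. The part of these weights in the spread between replicates was not tested. Over all genes, edgeR called 731 with t1 and t2 summed, 3995 with t1 alone and 9800 with t2 alone, so a call from 1 kind of library is read beside its own share of all genes.

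**Figure D3:**
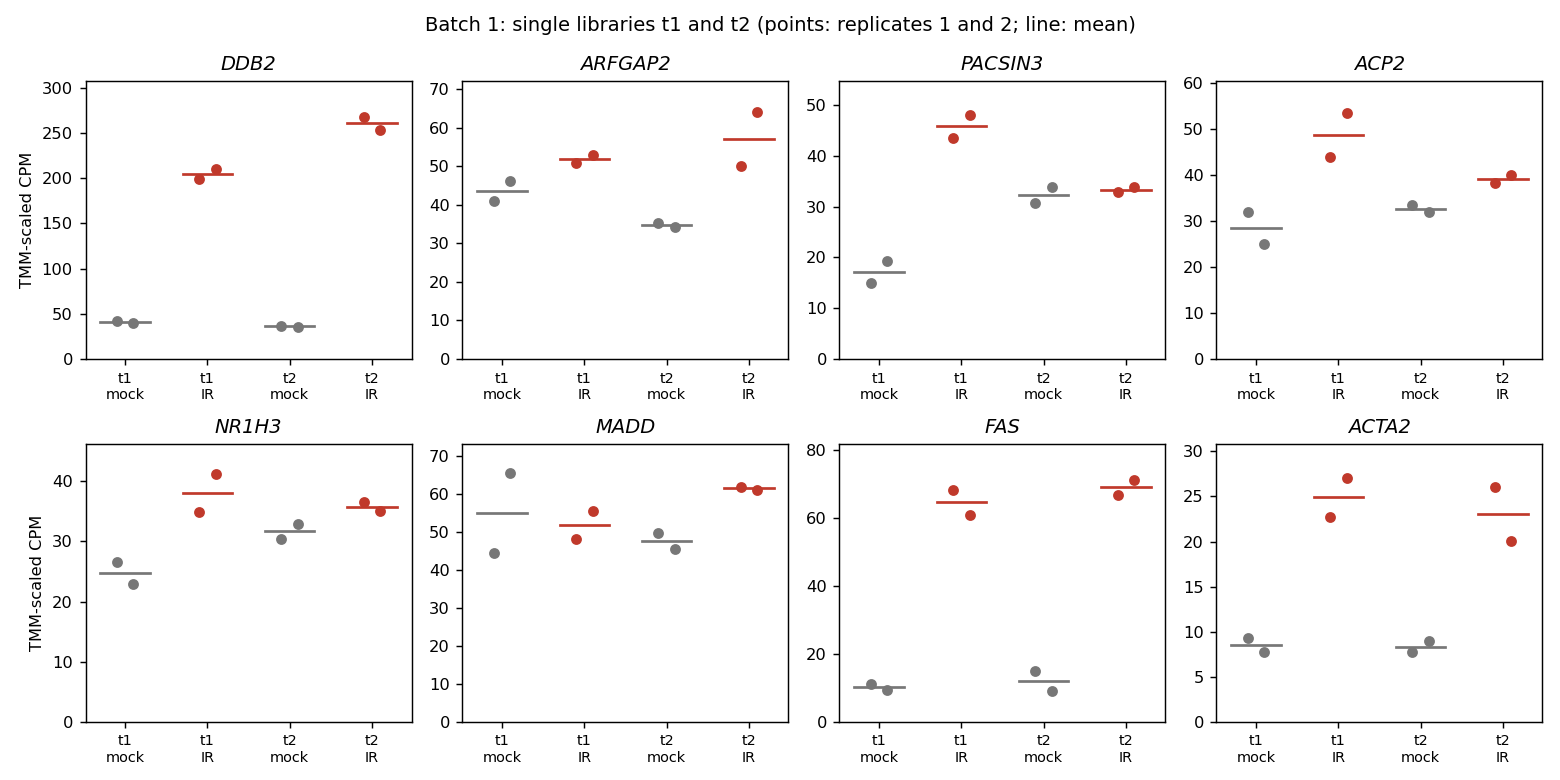
Level of each gene in the single libraries of batch 1, t1 and t2 apart, as TMM-scaled CPM on linear axes from 0 (points are replicates 1 and 2, lines their means). PACSIN3 differs after IR in t1 and overlaps in t2, whereas DDB2, FAS and ACTA2 are higher after IR in both.

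Enzalutamide was tested next. By edgeR's quasi-likelihood test none of the 6 genes passed an adjusted p of 0.05 for enzalutamide without IR (0.0105% of all genes were called), with IR (0.0105%) or averaged over IR (0.0628%). In each of these, 0 of 6 had an unadjusted p under 0.05. DESeq2 also called 0, of 6 genes with an adjusted p with IR and of 5 without IR and averaged over IR. Averaged over IR, the log2 differences (enzalutamide minus vehicle) were 0.11 for ARFGAP2 (95% interval -0.02 to 0.25), 0.09 for PACSIN3 (-0.08 to 0.26) and 0.12 for ACP2 (-0.03 to 0.27). They were 0.06 for NR1H3 (-0.13 to 0.25), 0.06 for MADD (-0.06 to 0.17) and -0.20 for ACTA2 (-0.49 to 0.09). The edgeR adjusted p-values of the 6 were between 0.848 and 0.938. The intervals of the 5 DDB2 neighbours reach from -0.13 to 0.27, and that of ACTA2 reaches down to -0.49. DDB2 itself stood at -0.02 (-0.19 to 0.15) and FAS at -0.14 (-0.34 to 0.06).

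The response to IR with enzalutamide was set against that with vehicle as an interaction. Of the 6 genes, 0 were called by edgeR (0% of all 28651 genes tested), 0 had an unadjusted p under 0.05, and DESeq2 called 0. The interaction, as the log2 difference after IR with enzalutamide minus that with vehicle, was 0.13 for ACP2 (95% interval -0.20 to 0.45) and 0.01 for MADD (-0.25 to 0.26). It was -0.04 for NR1H3 (-0.44 to 0.37), -0.11 for ARFGAP2 (-0.40 to 0.18), -0.16 for PACSIN3 (-0.51 to 0.19) and -0.30 for ACTA2 (-0.91 to 0.31). For DDB2 it was -0.25 (-0.59 to 0.08) and for FAS -0.17 (-0.59 to 0.25). With 2 samples a group these intervals are wide, and for ACTA2 a response smaller by 0.91 is inside them.

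The response to IR was also compared between batches, without the enzalutamide samples. None of the 6 genes was called by edgeR (0.106% of all 29195 genes tested were), 0 had an unadjusted p under 0.05 and 0 were called by DESeq2. Batch 1 minus batch 2 was 0.01 for ARFGAP2 (95% interval -0.32 to 0.34), -0.0044 for PACSIN3 (-0.31 to 0.31) and 0.13 for ACP2 (-0.23 to 0.49). It was 0.08 for NR1H3 (-0.28 to 0.44), -0.17 for MADD (-0.48 to 0.14) and 0.11 for ACTA2 (-0.41 to 0.64). The raised genes differed more, at 0.66 for FAS (0.24 to 1.09, edgeR adjusted p 0.574) and 0.35 for DDB2 (0.0048 to 0.69, adjusted p 0.875), and neither passed. With 1 kind of batch 1 library alone, PACSIN3 stood at 0.72 with t1 and at -0.61 with t2, on opposite sides of 0. With t2 alone PACSIN3 (edgeR adjusted p 0.011) and DDB2 (0.64, adjusted p 0.00999) were called, where 20.3% of all genes were.

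**Figure D4:**
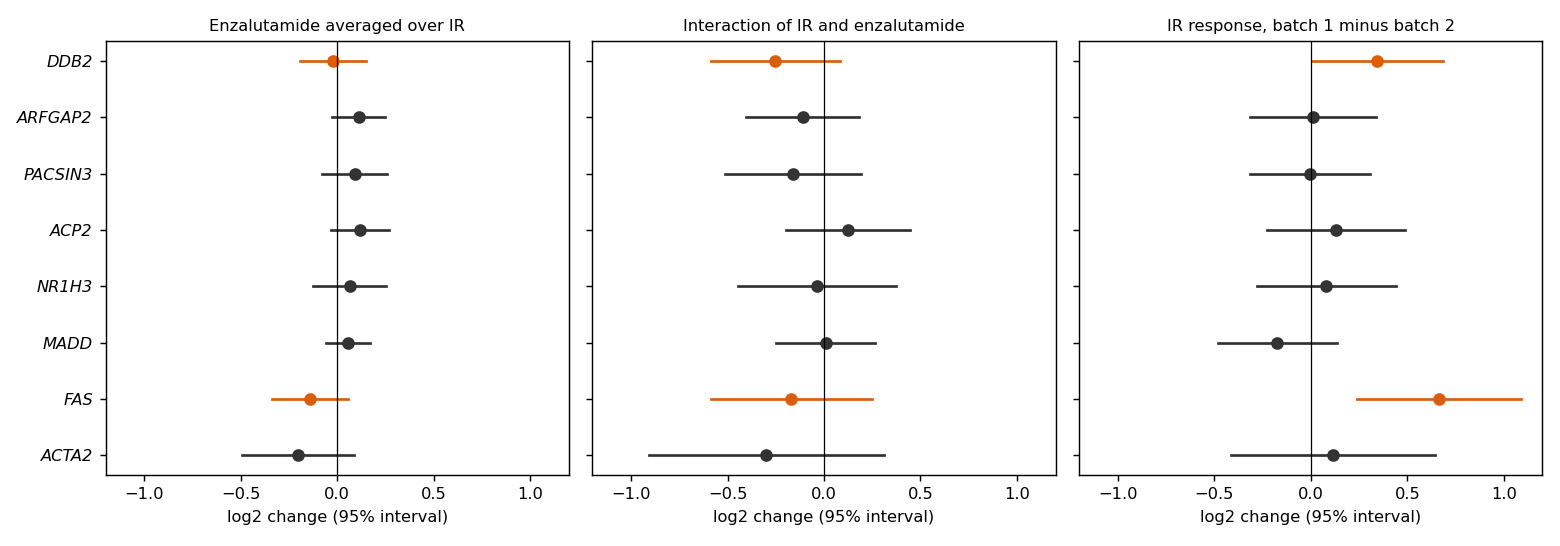
Log2 effects with 95% intervals (edgeR) for enzalutamide averaged over IR, for the interaction of IR and enzalutamide, and for the IR response of batch 1 minus batch 2. The intervals of all 6 flanking genes hold 0 in each panel, and those of FAS and DDB2 lie above 0 in the last.

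The other genes of the loci are what the choice left, and their values are given as a description. Of the 15 other genes among the 10 on each side of DDB2, 11 were tested in batch 1 and 12 in batch 2, and 0 were called higher in any of the 3 IR comparisons by edgeR, where 2.00%, 0.743% and 0.625% of all genes were. LRP4-AS1 was called lower in batch 1 (log2 -1.02), and with the replicate block in all 3. The block also called CKAP5 and, beside FAS, STAMBPL1 lower in batch 1. LRP4-AS1 and CKAP5 were named after their values were seen. CSTPP1, which overlaps the end of ARFGAP2 by 85 bases, stood at 0.03, -0.05 and -0.08. Beside FAS, 8 and 9 of the 19 other genes were tested and 0 were called either way without the block, with STAMBPL1 at -0.35, -0.11 and -0.09, ACTA2-AS1 at -0.36, -0.34 and 0.45 and LIPA at 0.04, -0.06 and 0.07. No test sets these genes against the chosen 6.

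Genes that work with each flanking gene were read from 6 fixed lists. By edgeR, 0 of 16 ARF GTPase and coat genes, 0 of 5 tested acid phosphatases, 0 of 18 LXR partners and targets and 0 of 17 RAB3 and DENN genes were called in any of the 3 IR comparisons. The same held for the actins and smooth muscle genes, with 13 tested in batch 1 and 16 in batch 2 of the 18 listed. Of 13 PACSIN and dynamin genes, 1 was called higher, TRIP10, an F-BAR protein of endocytosis. Its log2 differences were 1.07 (SE 0.137), 0.95 (SE 0.128) and 0.93 (SE 0.132), with edgeR adjusted p-values of 0.000493, 0.00133 and 0.0024. Among close relatives that were not called, ARFGAP1 stood at 0.45, 0.30 and 0.37, ARFGAP3 at 0.35, 0.17 and 0.22, PACSIN1 at -0.26, 0.01 and -0.19 and PACSIN2 at -0.02, 0.08 and 0.07. With the replicate block ARFGAP1 was called higher in all 3 comparisons and ARFGAP3 in batch 1. The block also called RAB3A and ACTG1 higher with enzalutamide, and ACP3, LPCAT3, SMPDL3A and TPM1 lower in batch 1. Enzalutamide, the interaction and the batch difference called 0 genes of the 6 lists, with or without the block.

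The profile of each flanking gene was also ranked among 21373 genes over the 12 samples, by the root mean square difference of log2 CPM centred within each batch. The nearest profiles to ARFGAP2 were those of RBM38 (0.0625), SLC25A22 (0.0659) and TBC1D10B (0.0660), and to PACSIN3 those of KIF1C (0.0594), ZFPM1 (0.0594) and WDR1 (0.0616). Nearest to ACP2 were WHRN (0.0654), FAM83H (0.0658) and ARG2 (0.0683), to NR1H3 were NME1-NME2 (0.0553), ZCCHC3 (0.0593) and PEX6 (0.0626), and to MADD were PPP6R2 (0.0348) and SSH1 (0.0364). Ranks among the 5 DDB2 neighbours ran from 52 (NR1H3 for ARFGAP2) to 14150 (PACSIN3 for MADD), and these genes were picked for a shared difference after IR. DDB2 ranked between 21309 and 21347 for the 5 genes beside it, near the far end of the order, and FAS between 21270 and 21340. This measure depends on the size of differences, and DDB2 and FAS had far larger ones after IR. The far ranks restate that and say nothing on whether the genes moved in the same direction. For ACTA2, FAS ranked 323 and DDB2 839. The nearest to ACTA2 were KANK3 (0.119), TYMSOS (0.127) and BLOC1S2 (0.128).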

How the data were processed

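The deposited values are raw counts of PRO-seq reads by Ensembl identifier in 16 LNCaP libraries. They are whole numbers, and library totals differ (3438642 to 9363458 in batch 1 and 10494563 to 19905824 in batch 2). Reads were processed with cutadapt 1.8.1, Bowtie2 2.4.4 and SAMtools 1.9 on hg38, per the submitters' processing notes. The counting tool, annotation release, use of strand and duplicate removal are not given in the sources used here. Of 60605 identifiers, 60463 (99.8%) matched the name table. Gene positions and windows are RefSeq's on GRCh38.p14.

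The t1 and t2 counts of a batch 1 replicate were summed, giving 12 samples in 6 groups. Differences were fitted over all genes with edgeR 4.0.16 (R 4.3.3) after filterByExpr and TMM scaling, using glmQLFit and glmQLFTest, with two-sided p-values and Benjamini-Hochberg adjustment over all genes tested in each comparison. All 6 flanking genes passed the filter in each comparison. Batch 1 was fitted alone, batch 2 with all 8 samples, and the batch difference over both without enzalutamide. SEs come from the log2 change and F statistic. CPM are TMM-scaled within a batch. The fitting steps were tested on simulated counts. The flanking genes, lists and markers were chosen with earlier results of these data known. Named genes are the 6, DDB2, FAS, the nearest tested locus genes, up to 3 genes a list and the 3 nearest profiles (mean of at least 2 CPM), of which 1 is not reported here, as are some luminal markers. List genes outside this rule (PACSIN1, PACSIN2 and those called only with the block) were named after their values were seen. Within a batch the labels give each group the same replicate numbers. These were taken as pairs in the fits with a replicate block and not in the fit reported. Across genes, the differences between replicates correlated between groups at 0.134 to 0.301 for all 6 pairs of groups in batch 2 and 0.22 for the 1 pair in batch 1. The fit reported has no block, and blocked calls stand beside it where they differ. Alternatives were RLE and total-count scaling, no filter, DESeq2 1.42.0, a replicate block, each sample left out, and t1 or t2 libraries alone.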

Additional observations from a re-analysis of the deposited data

How the results depend on the processing

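The number of the 6 flanking genes called after IR moved with the settings, for causes that were not tested. The share of all genes called in either direction, given in brackets, moved too. In batch 1 the number was 4 (2.82%), and 2 with DESeq2 (2.23%) and 5 with the replicate block (9.01%). With vehicle it was 3 (1.096%), and 5 with the replicate block (4.59%). With enzalutamide it was 2 (0.918%), and 1 with total counts (0.848%) and 5 with the replicate block (3.32%). Leaving out single samples lowered the number in at least some fits of each of these 3 comparisons. In the batch difference it was 0, and 1 with t2 libraries alone, where 20.3% of all genes were called. Fits that left 1 sample in an arm assume that it varies like the other groups. The replicate block changed no call of the 6 genes, DDB2 or FAS in the comparisons other than IR. It raised the calls over all genes from 731 to 2332 in batch 1, from 314 to 1315 with vehicle and from 263 to 951 with enzalutamide. For enzalutamide alone, with IR and averaged, it raised 3, 3 and 18 calls to 55, 55 and 272, against 13, 7 and 54 with DESeq2 and 74, 64 and 230 with no filter. With no filter the IR calls were 1157, 624 and 556, those of the interaction 32 (0 in the fit reported, 1 with the block and up to 4 with a sample left out) and those of the batch difference 119, against 31, with 96 in the block and 452 and 5646 with t1 and t2 libraries alone. Several small log2 values changed sign. For IR in batch 1, MADD was -0.078 with t1 libraries alone and -0.011 to 0.21 with each sample left out. For enzalutamide averaged over IR, leaving samples out gave DDB2 -0.066 to 0.066 and NR1H3 -0.0056 to 0.13. For the interaction it gave NR1H3 -0.20 to 0.14, MADD -0.042 to 0.071 and PACSIN3 -0.32 to 0.0059. For the batch difference, ARFGAP2 was -0.046 with RLE factors, -0.010 with no filter, -0.046 with DESeq2, -0.21 with t1 libraries alone and -0.13 to 0.12 with samples left out. PACSIN3 was 0.062 with total counts, 0.72 with t1 libraries alone and -0.050 to 0.016 with samples left out. With t2 libraries alone NR1H3 was -0.11, ACP2 -0.12 and MADD 0.12. With samples left out NR1H3 ran from -0.10 to 0.23 and ACTA2 from -0.058 to 0.24. Over the alternatives, the call of a single gene (the 6, DDB2 or FAS) was kept in 196 of 232 values for IR, lost in 25 and gained in 11. In the tested comparisons it was kept in 468 of 470 and gained in 2. With 2 samples a group, and 43 to 389 counts for ACTA2, small differences could be missed. Some differences whose intervals left out 0 were not called either, such as FAS in the batch difference (0.66, interval 0.24 to 1.09).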

Other observations

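The nearest tested gene on each side of 41 other p53 targets gave 82 neighbours, chosen from a list written with earlier results of these data known. By edgeR, 12 of them (14.6%) were called higher after IR in batch 1, 3 (3.66%) with vehicle and 4 (4.88%) with enzalutamide, and 0 were called lower in any of the 3. Of all genes tested, 2.00%, 0.743% and 0.625% were called higher. Among the 14 neighbours that overlap their target, 5, 2 and 2 were called, and among the 68 that do not, 7, 1 and 2 were. With the replicate block 16, 10 and 8 of the 82 were called higher and 3, 1 and 0 lower, where 4.77%, 2.56% and 1.87% of all genes were called higher. The difference between overlapping and other neighbours was not tested. DINOL, NDUFAF6 and ISG20 were called in all 3 comparisons, and were named after their values were seen. DINOL overlaps CDKN1A on the opposite strand and NDUFAF6 overlaps TP53INP1, whereas ISG20 lies 3350 bases from AEN. Since the use of strand is not stated, reads of CDKN1A and TP53INP1 counted for their overlapping neighbours cannot be told apart. DINOL stood at a log2 difference of 2.83, 1.96 and 1.92, and ISG20, an exonuclease induced by interferon, at 1.00, 0.97 and 1.04. ACTA2 stood at 1.51, 1.38 and 1.08, and the neighbours of DDB2 were below ISG20 in each. With enzalutamide the 95% interval of ACTA2 (0.64 to 1.52) holds the value of ISG20, and the order of the 2 genes was not tested.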
